A study of Mus musculus with 6 samples.

Results

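The genes described here are the 9 that carry a type I interferon signal from the cell surface to the nucleus or switch on the interferon genes themselves. They are the receptor chains Ifnar1 and Ifnar2, the kinases Jak1 and Tyk2, the transcription factor Stat2, and the interferon regulatory factors Irf1, Irf3, Irf7 and Irf9. They were taken by symbol from a table of 24062 genes and were chosen with earlier results of these data known. Of the 24062 genes, 16904 had a sum of at least 10 counts and were tested. All 9 passed that filter. Whole retinae of mice on a C57BL/6 background (C57BL/6N in the paper's methods) were collected at postnatal day 21 (P21), and 6 RNA-seq libraries were compared, each from 1 retina. Of these, 3 were Rb1/p107/Hells TKO and the other 3 were Rb1/p107 DKO. Mice of both groups carried Chx10-Cre, which is active in retinal progenitor cells, floxed Rb1 alleles and a constitutive deletion of p107 (Rbl1), so neither group is a wild-type retina. The TKO mice also carried floxed Hells alleles, and Hells encodes a helicase of the chromatin remodeling family. Chx10-Cre acts in a mosaic pattern, so each retina also held cells in which the floxed alleles were intact. The comparison asks which transcripts differed when Hells was deleted in retinae that already lacked Rb1 and p107. The labels do not say whether the 3 retinae of a group came from separate animals, so the p-values measure only the spread between these retinae.

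Interferons of type I bind a receptor made of IFNAR1 and IFNAR2, which are bound inside the cell by the kinases TYK2 and JAK1. The kinases phosphorylate STAT2, which joins IRF9 in the complex ISGF3. ISGF3 binds the interferon-stimulated response element (ISRE) and turns on the interferon-stimulated genes, Irf7 and Irf9 among them in many cells. A second element called GAS, found near genes such as Irf1, serves the response to interferon-gamma. IRF3 and IRF7 act at the other end of the loop, where sensors of foreign nucleic acid activate them to induce interferon genes. IRF3 is commonly present before any stimulus, whereas IRF7 is itself interferon-induced.

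The elements were searched for in the promoters of these genes, because the members that differed between the genotypes include known interferon targets. Each promoter was the stretch from 250 bases before to 50 bases after a RefSeq start in GRCm38.p6. The ISRE core was read as GAAA, any 2 bases, GAAA, and GAS as TTC, any 3 bases, GAA, on both strands. The ISRE core was found in the promoter of 1 of the 9 genes, against 3.99% of 27018 genes with a promoter. GAS was found in 3 of the 9, against 9.55% of all genes with a promoter. The stretches that hold these matches are given below with the gene's strand 5′ to 3′ and the match in capitals, and Isg15, an ISGF3 target, is shown for comparison.
Ifnar1 (chr16:91485190-91485238, plus strand, GAS at -5 to 3): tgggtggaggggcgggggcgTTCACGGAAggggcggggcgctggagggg
Ifnar2 (chr16:91372549-91372597, plus strand, GAS at -214 to -206): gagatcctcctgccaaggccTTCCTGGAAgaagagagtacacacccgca
Irf1 (chr11:53769904-53769952, plus strand, GAS at -90 to -82): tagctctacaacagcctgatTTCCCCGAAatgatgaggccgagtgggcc
Stat2 (chr10:128270256-128270305, plus strand, ISRE core at -222 to -213, read on the other strand): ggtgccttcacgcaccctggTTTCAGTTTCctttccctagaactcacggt
Isg15 (chr4:156200855-156200916, minus strand, 3 overlapping ISRE cores from -78 to -57): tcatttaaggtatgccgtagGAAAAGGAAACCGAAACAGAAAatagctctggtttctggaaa

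No match of either kind was found in the windows of Irf3, Irf7, Irf9, Jak1 and Tyk2, which says only that these exact letters are not there. The 150 bases before the RefSeq start of Irf7 and before the upstream RefSeq start of Irf9 are shown because these were the members with the smallest adjusted p. The 4-base unit GAAA or its reverse complement TTTC is in capitals. In the annotation used for gene positions, Irf9 begins at 55603571, so its stretch lies inside that gene. Irf7, on the minus strand, begins there at 141266481, so part of its stretch lies inside the gene too.
Irf7 (chr7:141266425-141266574, minus strand): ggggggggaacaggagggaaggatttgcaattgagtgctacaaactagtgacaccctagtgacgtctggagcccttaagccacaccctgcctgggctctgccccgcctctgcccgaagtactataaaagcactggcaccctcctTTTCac
Irf9 (chr14:55603835-55603984, plus strand): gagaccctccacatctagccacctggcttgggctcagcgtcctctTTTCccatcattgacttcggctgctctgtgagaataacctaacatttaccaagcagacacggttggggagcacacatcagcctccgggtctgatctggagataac
Each of these stretches held 1 such unit, the stretch before the second RefSeq start of Irf9 held 2, and that before Irf3 held 3. Over 32841 promoters, 70.0% held at least 1 in the same 150 bases, and this search was added after the values were seen.

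Hells was checked first as the gene that separates the groups. Its normalized count was at most 83.4 in a TKO retina and at least 395 in a DKO retina (log2 fold change -2.91, with an adjusted p of 0.00359 in edgeR's quasi-likelihood F test). This count covers the whole gene, and reads of the floxed exon were not examined. Markers of dividing cells were lower in TKO retinae too, so the Hells count does not by itself show the deletion in each library. A normalized count is a count divided by its library's relative size after TMM scaling. Rb1 was higher in TKO retinae (adjusted p = 0.0388 from edgeR, log2 fold change 0.34), and Rbl1 did not pass (0.13, adjusted p = 0.839 from edgeR, with 20.3 and 18.6 normalized counts in TKO and DKO retinae). The libraries summed to between 10343907 and 14203098 counts.

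Of the 9 genes, 4 were lower in TKO than in DKO retinae at an adjusted p of at most 0.05, namely Irf7, Irf1, Irf9 and Ifnar2. Irf3 was higher, and Ifnar1, Jak1, Tyk2 and Stat2 did not pass. Over all genes tested, 9.20% were lower and 7.35% were higher by the same rule. The study's criteria also ask for a change of 1 or more on the log2 scale and for a base mean no lower than 10. Applied here to edgeR's results, where the paper used DESeq2, they gave Irf7 and Irf1 as lower, against 4.38% of all genes. Every TKO retina lay below every DKO retina for 5 of the 9 genes, against 20.6% of all genes. For Irf3 and Jak1 every TKO retina lay above every DKO retina, and the share of all genes that did so was not computed. The median log2 fold change of the 9 genes was -0.14, and that of all genes tested was -0.01. In the plot of normalized counts by retina, the called genes are seen next to those whose groups overlap.

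**Figure D1:**
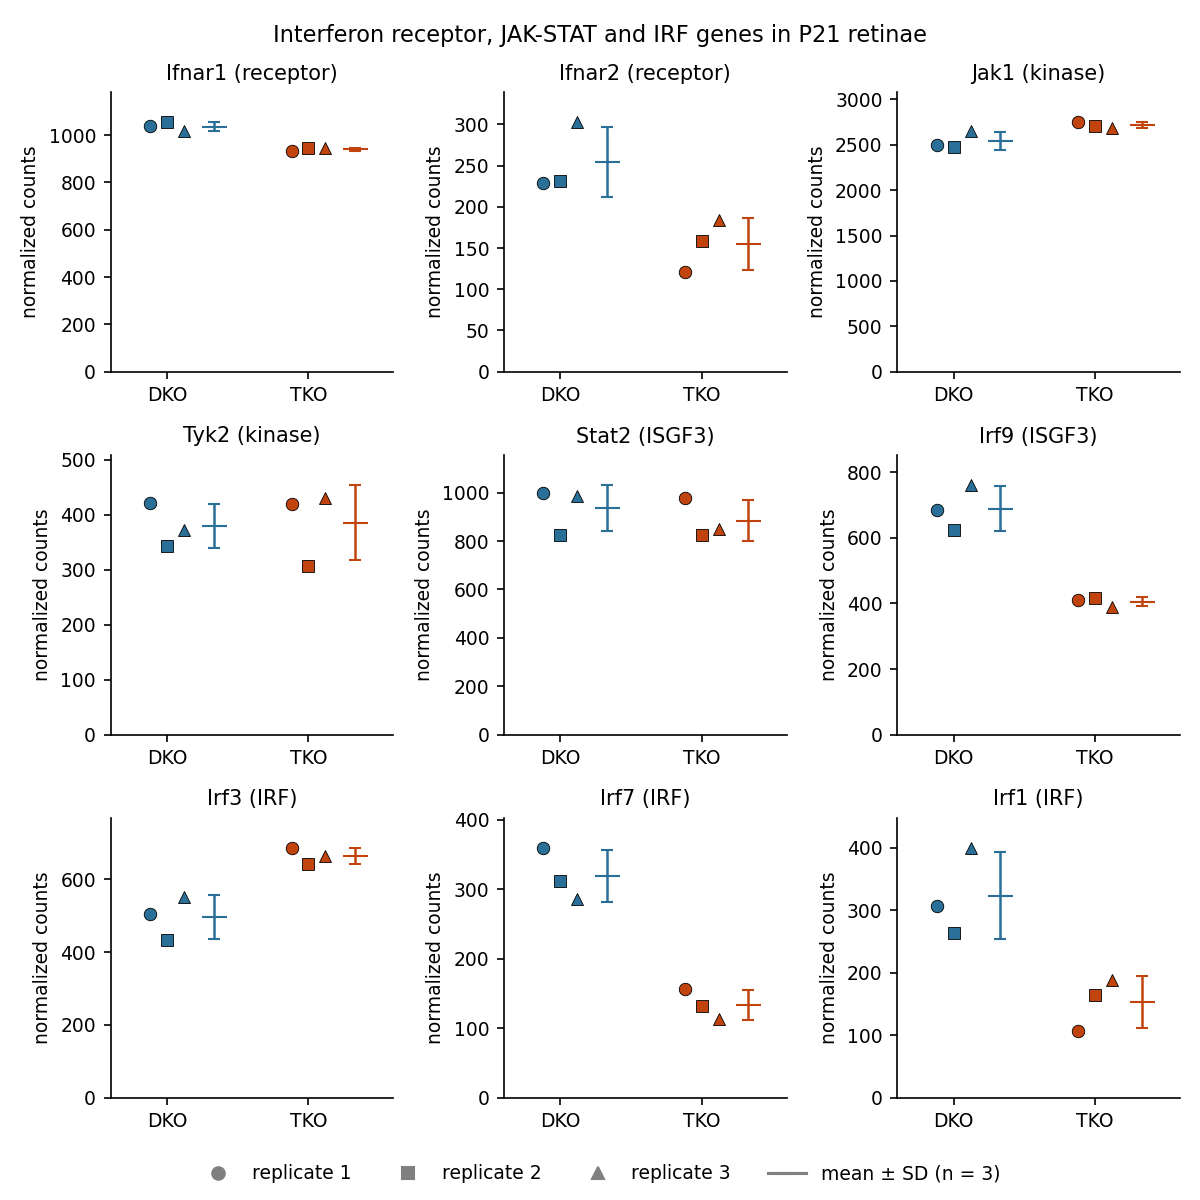
Normalized counts (vertical axes, starting at 0) of the 9 genes in each DKO and TKO retina, with symbols for replicates 1, 2 and 3 and the mean ± SD of 3 retinae to their right. The groups are apart for Irf7, Irf1, Irf9, Ifnar2, Irf3, Ifnar1 and Jak1, by little for the last 2, and overlap for Tyk2 and Stat2.

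Of the receptor chains, Ifnar2 passed the test and Ifnar1 did not. Ifnar2, which binds the ligand with high affinity and carries the docking site of the STAT proteins, had 122, 159 and 184 normalized counts in TKO replicates 1 to 3 and 229, 232 and 303 in DKO replicates 1 to 3. The highest TKO retina was below the lowest DKO retina. The means were 155 ± 31.5 and 255 ± 42.0 (SD, n = 3 each), so TKO retinae held 60.8% of the DKO level. The log2 fold change was -0.72 (standard error 0.187, 95% confidence interval -1.15 to -0.29, adjusted p = 0.0355 from edgeR). The call was lost without TKO replicate 1 (-0.57, adjusted p = 0.0964 from edgeR), TKO replicate 2 (-0.74, 0.105), DKO replicate 1 (-0.79, 0.0734), DKO replicate 2 (-0.78, 0.0854) or DKO replicate 3 (-0.57, 0.0731). Ifnar2 lies on chromosome 16 of GRCm38 from 91372783 to 91405589, and an annotated read-through gene, Gm21970, covers 13869 bp of the same strand but has no row of that name in the count table.

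Ifnar1, the chain that binds TYK2, lies on the same chromosome from 91485238 to 91507441. It had 933, 944 and 944 normalized counts in TKO replicates 1 to 3 and 1037, 1055 and 1015 in DKO replicates. The groups did not overlap, and both were tight. The difference was only -0.14 on the log2 scale (standard error 0.0681, 95% confidence interval -0.30 to 0.02, adjusted p = 0.192 from edgeR), and TKO retinae held 90.8% of the DKO level. The ratio of Ifnar2 to Ifnar1 counts within a retina, which needs no scaling, was 0.130 to 0.195 in TKO and 0.220 to 0.299 in DKO retinae (exact two-sided permutation p = 0.1, the smallest that 3 against 3 allows, and 0.125 after Benjamini-Hochberg adjustment over the 5 ratios examined). The 5 ratios were chosen after the values of the genes were seen.

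The kinases showed no call. Jak1 lies on chromosome 4 from 101152367 to 101265282 and is used by many cytokine receptors besides this one. It had 2751, 2711 and 2684 normalized counts in TKO replicates 1 to 3 and 2499, 2476 and 2654 in DKO replicates. Each TKO retina was above each DKO retina, by as little as 29.8 counts, but the log2 fold change was 0.09 (standard error 0.0723, 95% confidence interval -0.07 to 0.26, adjusted p = 0.397 from edgeR) and turned to -0.06 with scaling by total counts only. Tyk2 lies on chromosome 9 from 21104068 to 21131243. It had 419.7, 307 and 431 normalized counts in TKO replicates 1 to 3 and 422, 342 and 373 in DKO replicates. The groups overlapped, and the log2 fold change was 0.03 (standard error 0.150, 95% confidence interval -0.32 to 0.37, adjusted p = 0.923 from edgeR), with a sign that depended on the scaling and on single retinae. An annotated antisense gene overlaps 24326 bp of Tyk2 and has no row of that name in the count table. The strand setting of the counting is not stated, so reads of the pair cannot be told apart. The Tyk2 to Jak1 ratio within a retina was 0.113 to 0.161 in TKO and 0.138 to 0.169 in DKO retinae (exact permutation p = 0.8, 0.8 after adjustment).

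Of the members that enter ISGF3, Irf9 passed the test and Stat2 did not. Irf9, which gives ISGF3 its DNA-binding specificity, lies on chromosome 14 from 55603571 to 55610030. It had 409, 416 and 390.2 normalized counts in TKO replicates 1 to 3 and 683, 622 and 761 in DKO replicates. The 3 TKO retinae lay within 25.5 counts of each other and below the DKO retinae. The means were 405 ± 13.3 and 689 ± 69.3 (SD, n = 3 each), or 58.8% of the DKO level in TKO retinae. The log2 fold change was -0.77 (standard error 0.0994, 95% confidence interval -0.99 to -0.54, adjusted p = 0.00677 from edgeR), and the call held with any 1 retina left out (adjusted p from 0.00489 to 0.0388). Irf9 shares 123 bp with Rnf31 on the same strand, and Rnf31 went the other way on the log2 scale (0.35, adjusted p = 0.0629 from edgeR).

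Stat2 lies on chromosome 10 from 128270559 to 128292849 and brings the activating domain to ISGF3. It had 979, 823 and 852 normalized counts in TKO replicates 1 to 3 and 997, 826 and 986 in DKO replicates. The groups overlapped, with means of 885 ± 83.2 and 936 ± 95.3 (SD, n = 3 each). On the log2 scale the difference was -0.08 (standard error 0.105, 95% confidence interval -0.32 to 0.16, adjusted p = 0.628 from edgeR). Within a retina the ratio of Irf9 to Stat2 was 0.418 to 0.505 in TKO and 0.686 to 0.772 in DKO retinae (exact permutation p = 0.1, 0.125 after adjustment).

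Irf7 had the largest absolute log2 fold change and the smallest adjusted p of the 9 genes. It encodes the factor that amplifies interferon production once a response has begun, and it lies on chromosome 7 from 141262706 to 141266481. It had 156, 132 and 113 normalized counts in TKO replicates 1 to 3 and 359.5, 312 and 287 in DKO replicates. The lowest DKO retina was well above the highest TKO retina. The means were 133 ± 21.6 and 319 ± 37.0 (SD, n = 3 each), or 41.9% of the DKO level in TKO retinae. The log2 fold change was -1.26 (standard error 0.157, 95% confidence interval -1.62 to -0.90, adjusted p = 0.00621 from edgeR), which ranked 77 by p among the genes with a negative log2 fold change. The call held with any 1 retina left out (-1.38 to -1.15, adjusted p from 0.00342 to 0.0388 from edgeR). Phrf1, which overlaps 45 bp of Irf7 on the other strand, differed by 0.18 on the log2 scale (adjusted p = 0.193 from edgeR).

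Irf1, a factor induced by both types of interferon that binds many of the same promoters, lies on chromosome 11 from 53770014 to 53778374. It had 106.6, 164 and 188 normalized counts in TKO replicates 1 to 3 and 307, 264 and 399.8 in DKO replicates. The groups did not overlap, although the spread within each was wide, and TKO retinae held 47.3% of the DKO level. The means were 153 ± 41.7 and 323 ± 69.6 (SD, n = 3 each), and the log2 fold change was -1.08 (standard error 0.230, 95% confidence interval -1.61 to -0.55, adjusted p = 0.0181 from edgeR). The adjusted p was 0.0648 without TKO replicate 2 and 0.0582 without DKO replicate 1, and the absolute log2 fold change was under 1 without TKO replicate 1 (-0.88) or DKO replicate 3 (-0.90). An annotated gene on the other strand, Gm17334, overlaps 907 bp of Irf1 and has no row of that name in the table.

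Irf3 moved the other way. It lies on chromosome 7 from 44997648 to 45002848 and had 686, 641 and 664 normalized counts in TKO replicates 1 to 3, against 504, 433 and 551 in DKO replicates. Each TKO retina was above each DKO retina. The means were 664 ± 22.4 and 496 ± 59.2 (SD, n = 3 each), so TKO retinae held 134% of the DKO level. TKO retinae differed by 0.42 on the log2 scale (standard error 0.105, 95% confidence interval 0.18 to 0.66, adjusted p = 0.0305 from edgeR). The call was lost without TKO replicate 1 (0.39, adjusted p = 0.0912 from edgeR), TKO replicate 2 (0.44, 0.0883), DKO replicate 1 (0.43, 0.0813) or DKO replicate 2 (0.33, 0.101), and with scaling by total counts only (0.26, 0.106). Bcl2l12, which overlaps 1065 bp on the other strand, had 35.6 and 52.3 normalized counts in TKO and DKO retinae (log2 fold change -0.56, adjusted p = 0.180 from edgeR).

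The factors that induce interferon genes were compared within each retina. The ratio of Irf7 to Irf3 counts was 0.227, 0.205 and 0.170 in TKO replicates 1 to 3 and 0.713, 0.719 and 0.520 in DKO replicates, a mean difference of -1.69 on the log2 scale. The ratio of Irf1 to Irf3 was 0.156 to 0.283 in TKO and 0.608 to 0.726 in DKO retinae, a mean difference of -1.53. Neither pair of groups overlapped, and both exact permutation tests gave p = 0.1, or 0.125 after adjustment over the 5 ratios. In normalized counts, every TKO retina was below every DKO retina for Irf7 and Irf1, and above for Irf3. Both ratios therefore had to separate, and their p-values add nothing to the calls of the single genes.

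**Figure D2:**
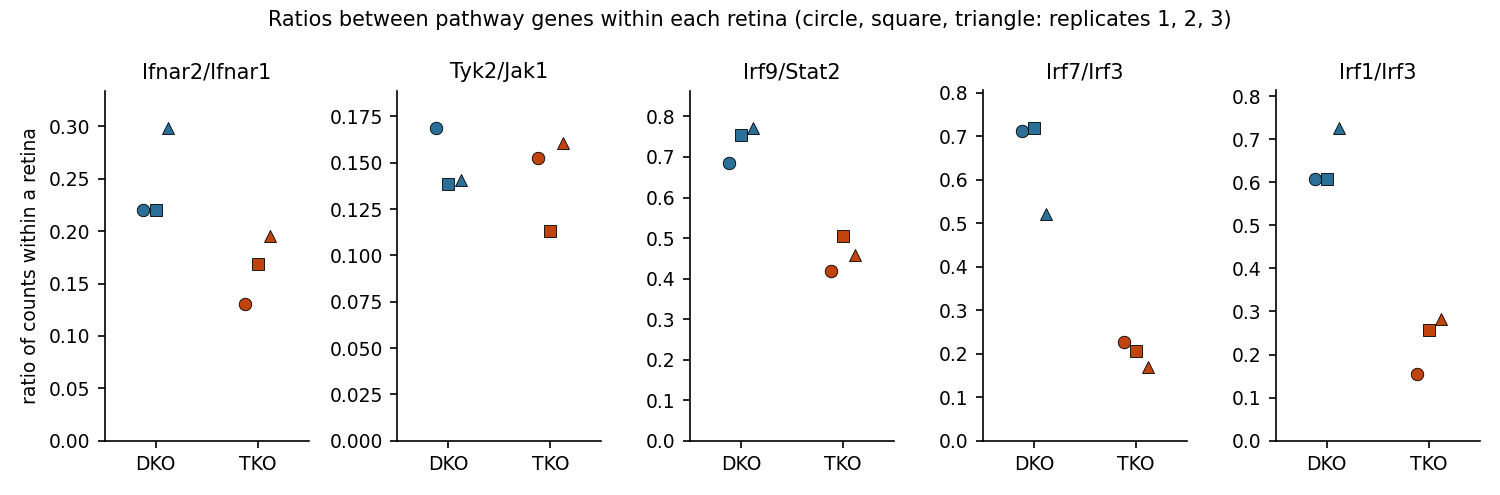
Ratio of the counts of 2 genes within each retina (vertical axes, starting at 0) for 5 gene pairs, with DKO retinae in blue and TKO retinae in orange. The groups overlap for Tyk2/Jak1 and are apart for the other 4 pairs, including Irf7/Irf3, at 0.520 to 0.719 in DKO and 0.170 to 0.227 in TKO retinae.

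Levels per length were compared between genes as RPKM, the usual read count per kilobase of annotated exon and library size, here with TMM-scaled libraries. In DKO retinae Jak1 was highest at 27.8 ± 1.06 RPKM (SD, n = 3), followed by Ifnar1 at 13.8, Stat2 at 12.5, Irf3 at 11.4 and Irf9 at 10.1 RPKM. Irf7 at 6.68, Irf1 at 6.43 and Ifnar2 at 6.05 RPKM were next, and Tyk2 was last at 4.36 RPKM. Among neighbours in this order, the retinae of Stat2 and Irf3, of Irf3 and Irf9, of Irf7 and Irf1, and of Irf1 and Ifnar2 overlapped. In TKO retinae Irf3 was second at 15.2 ± 0.515 RPKM and apart from Ifnar1 (12.5 RPKM), and Irf7 was last at 2.79 ± 0.452 RPKM, with ranges that overlapped between Tyk2, Ifnar2, Irf1 and Irf7 as neighbours. The levels depend on the length used, since annotated exons that the retina does not use lower them. With the longest transcript, the mean over the 6 retinae was 42.4 in place of 28.8 RPKM for Jak1 and 8.81 in place of 4.74 RPKM for Irf1.

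The other genes of the same families were tested in the same fit. Among 4 other interferon receptor chains, none passed the test by edgeR. The interferon-gamma receptor chains Ifngr1 and Ifngr2 had log2 fold changes of 0.22 and -0.19 (adjusted p = 0.332 and 0.142 from edgeR). Ifnlr1, the specific chain of the interferon-lambda receptor, had -0.72 on few counts (adjusted p = 0.501), and Il10rb, its partner, had -0.42 (adjusted p = 0.165). At an unadjusted p under 0.05, 1 of the 4 was lower and none was higher, and DESeq2 called none of the 4. By edgeR, 1 of the 4 was lower with total counts only and 1 was lower without TKO replicate 3.

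None of 7 other JAK and STAT genes that were read passed by edgeR either. Jak2 (0.11), Jak3 (-0.19), Stat3 (0.01), Stat5a (-0.16), Stat5b (0.15) and Stat6 (-0.08) had log2 fold changes between -0.19 and 0.15 and adjusted p of at least 0.256. Stat4 had -1.27 (adjusted p = 0.318) on fewer than 10 normalized counts in every retina. At an unadjusted p under 0.05, 0 of the 7 were lower or higher, and DESeq2 called 0 of them.

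Among 4 other IRF genes, Irf5 and Irf8 were lower in TKO retinae, against 9.20% lower over all genes. Both are known for their expression in macrophages and microglia. Irf5 had 32.1, 33.7 and 49.1 normalized counts in TKO replicates 1 to 3 and 70.6, 93.7 and 77.7 in DKO replicates (log2 fold change -1.08, adjusted p = 0.0217 from edgeR). Irf8 had 31.0, 46.3 and 62.6 in TKO and 84.7, 84.0 and 123 in DKO replicates (-1.06, adjusted p = 0.0405). With 1 retina left out, both passed only without TKO replicate 3, and 1 of them passed without DKO replicate 3. Irf2 (0.13, adjusted p = 0.52) and Irf4 (0.93, 0.249) did not pass. The plot of log2 fold changes shows these families beside the 9 genes.

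**Figure D3:**
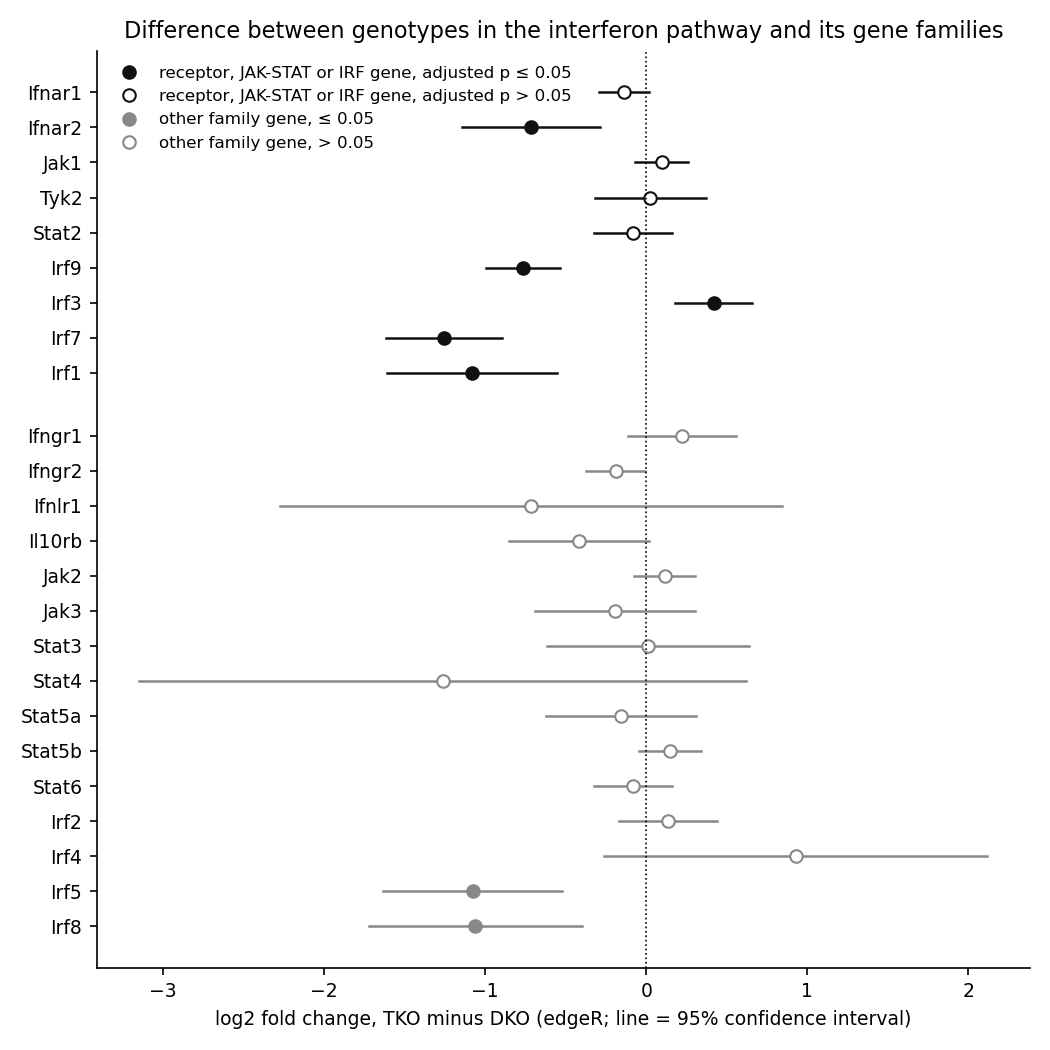
Log2 fold change, TKO minus DKO (horizontal axis), with its 95% confidence interval for the 9 genes (black) and 15 other receptor, JAK, STAT and IRF genes (grey). Filled circles passed an adjusted p of 0.05 in edgeR, which among the grey genes are Irf5 and Irf8 alone, at -1.08 and -1.06.

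The sum of the microglial markers was lower in every TKO retina than in every DKO retina. The 16 microglial markers summed to 167 to 305 CPM (counts relative to library size) in TKO and 361.5 to 550.1 in DKO retinae. Of the 16, 9 were lower and none was higher, against 9.20% and 7.35% of all genes. Their median log2 fold change was -1.11. The markers Csf1r (-1.03, adjusted p = 0.0135 from edgeR) and C1qa (-1.29, 0.0125) were among the 9, whereas P2ry12 (0.04, 0.945), Tmem119 (-0.35, 0.470) and Siglech (0.77, 0.100) did not pass. In a whole retina, fewer cells of a type and less RNA per cell cannot be told apart. Among the TKO retinae, replicate 3 had the highest microglial sum and the lowest Irf7, and replicate 1 had the lowest microglial sum and the highest Irf7. Ifnar2, Irf1, Irf5 and Irf8 were instead highest in TKO replicate 3 and lowest in TKO replicate 1. Among the DKO retinae, replicate 3 had the lowest microglial sum (361.5 CPM) but the highest Ifnar2, Irf1, Irf3, Irf8 and Irf9. Irf7 was lowest in DKO replicate 3, and Irf5 was highest in DKO replicate 2, which had the highest microglial sum. The part of the microglial markers in the results was not tested.

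Other marker lists moved with the genotype as well. All 8 markers of dividing cells were lower in TKO retinae, with sums of 38.5 to 158 CPM against 390.2 to 853. All 9 rod markers were higher, at 27740 to 56060 against 9423 to 17880 CPM. The 7 genes of reactive gliosis summed to 170.1 to 407 in TKO and 451 to 1567 in DKO retinae. Of the 7, only Lcn2 passed, as lower (log2 fold change -4.86, adjusted p = 0.00733 from edgeR). Gfap (-1.46, 0.0566) did not pass, and Fgf2 had a positive log2 fold change (0.38, 0.614). DKO replicate 3, which held the highest gliosis sum, was also the DKO retina with the highest Ifnar2, Irf1, Irf3 and Irf9, and the lowest Irf7. T and NK cell markers were close to 0 in all 6 retinae (1.00 to 1.72 against 2.18 to 2.91 CPM), and lens markers summed to 49.5, 274 and 41.0 CPM in TKO replicates 1 to 3, against 8.33 to 8.58 in DKO retinae. Of the lens markers 4 of 8 were higher, and of the T and NK cell markers 1 of 2 tested was lower. Over all genes 9.20% were lower and 7.35% were higher. Among 8 endothelial markers 1 was higher, among 8 of Muller glia 1 was lower and 3 were higher, among 7 of cones 2 were higher, and among 8 of bipolar cells and 7 of pigment epithelium 1 each was higher. Of 18 amacrine, ganglion and horizontal cell markers, 0 passed by edgeR and 5 had an unadjusted p under 0.05. The part of these lists in the results was not tested.

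**Figure D4:**
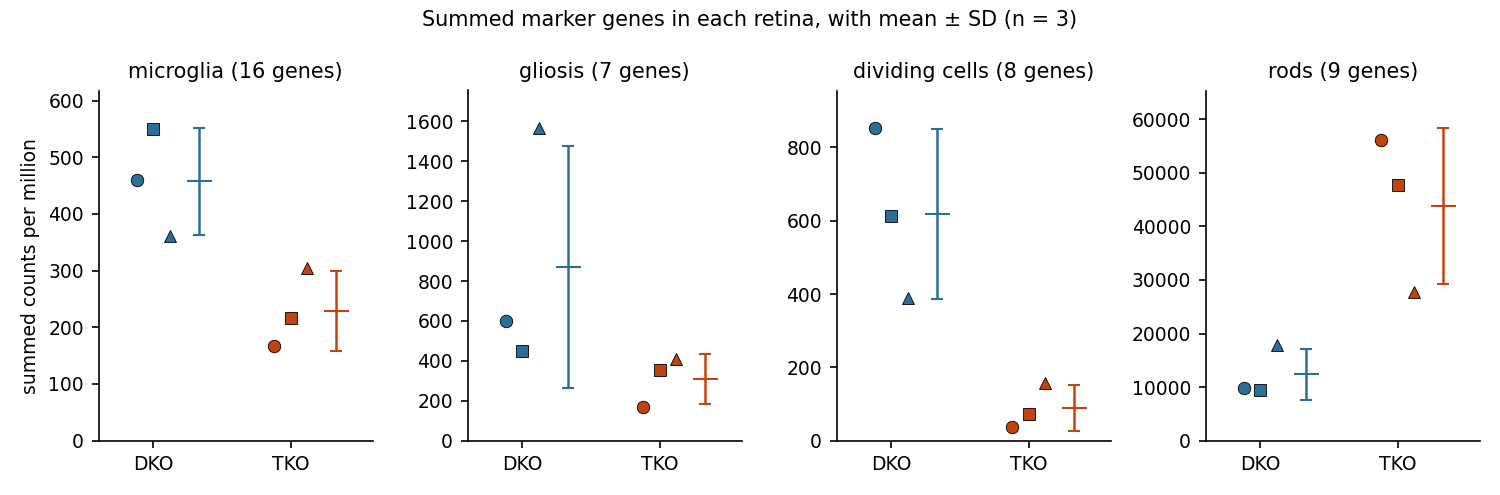
Summed CPM (vertical axes, starting at 0) of the microglial, gliosis, dividing cell and rod marker genes in each retina, with symbols for replicates 1 to 3 and the mean ± SD of 3 retinae. All 4 sums separate the groups, with TKO retinae below DKO retinae for all but the rod markers.

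The ligands of the pathway were almost undetected. Of 21 interferon genes, 18 had no count in any retina, and the other 3 held 5 counts in all, with at most 2 in a retina. These were Ifnb1, Ifng and Ifnz, and all 5 counts were in DKO retinae. None of the 21 reached the filter, and with a true level of up to 3 counts still compatible with a 0, a difference between the groups was not detectable at this depth.

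The genes that activate IRF3 and IRF7 were lower as far as they passed. Of 20 sensors, adaptors and kinases, 7 were lower and none was higher (median log2 fold change -0.46), against 9.20% lower and 7.35% higher over all genes. The DNA sensor cGAS (Mb21d1) had 10.3, 17.9 and 36.8 normalized counts in TKO replicates 1 to 3 and 165, 151 and 65.6 in DKO replicates (log2 fold change -2.56, adjusted p = 0.0127 from edgeR). STING (Tmem173), which acts after it, had -1.54 (adjusted p = 0.0119), and Tlr7, an RNA sensor of endosomes, had -1.45 (0.0444). The cytosolic RNA sensors RIG-I (Ddx58) and MDA5 (Ifih1) had -1.13 (adjusted p = 0.0048) and -1.41 (0.00733), and the kinase Irak1 had -0.40 (0.04996, just under the threshold). The number lower was 2 without TKO replicate 2 or DKO replicate 2, 3 without DKO replicate 1 and 4 without TKO replicate 1. Without TKO replicate 3, 7 were lower and 2 were higher.

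Regulators that dampen the pathway went both ways. Of 13, 3 were lower and 3 were higher, against 9.20% lower and 7.35% higher over all genes, with a median log2 fold change of -0.14. Usp18, which binds IFNAR2 and limits signaling and is itself an interferon target, had 47.0, 26.3 and 31.9 normalized counts in TKO replicates 1 to 3 and 160.0, 155 and 91.5 in DKO replicates (log2 fold change -1.95, adjusted p = 0.0078 from edgeR). The phosphatase Ptpn6 (-1.16, adjusted p = 0.0311) and Socs2 (-0.87, 0.014) were also lower. The STAT inhibitor Pias3 (0.90, adjusted p = 0.00691), the phosphatase Ptpn2 (0.50, 0.00901) and Pias1 (0.40, 0.0196) were higher. With 1 retina left out, 1 to 4 were lower and 2 or 3 were higher. A single gene was lower without TKO replicate 2, without DKO replicate 1 or without DKO replicate 2.

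Most targets of the pathway were lower in TKO retinae. Of 35 ISGF3 targets tested, 31 were lower and none was higher, with a median log2 fold change of -1.41. Oasl2 had 292, 324 and 315 normalized counts in TKO replicates 1 to 3 and 1134, 1053 and 1015 in DKO replicates (-1.78, adjusted p = 0.000362 from edgeR). By the rule for named genes the other examples were Lgals3bp (-1.50, adjusted p = 0.00378), Ifit2 (-0.86, 0.0134), Ifi44 (-3.35, 0.00821), Oas1a (-3.10, 0.00419) and Oas2 (-2.91, 0.0048). Oas genes make an activator of an RNA-cleaving enzyme, and Ifit2 belongs to a family that binds foreign RNA. Usp18, Ddx58 and Ifih1 are in this list too. The ISRE core was in the promoter of 13 of 27 targets with a promoter sequence (48.1%).

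Of 17 interferon-gamma targets, which respond in part to type I interferon too, 14 were lower and none was higher, with a median log2 fold change of -1.67. The immunity-related GTPase Irgm1 had 101, 115 and 159.5 normalized counts in TKO replicates 1 to 3 and 426, 380.0 and 386 in DKO replicates (-1.67, adjusted p = 0.00473 from edgeR). The guanylate-binding genes Gbp2 (-1.50, adjusted p = 0.0106) and Gbp7 (-1.29, 0.00473), the chemokine Cxcl10 (-3.34, 0.0106), the invariant chain Cd74 (-2.97, 0.0351) and the adhesion molecule Icam1 (-2.03, 0.00731) were lower as well. Cd74 varied widely, with 34.8, 143 and 317 normalized counts in DKO replicates 1 to 3 and at most 31.9 in a TKO retina. The number lower was 9 without TKO replicate 2. The shares lower were 88.6% of ISGF3 targets and 82.4% of interferon-gamma targets, against 9.20% of all genes. The sums of microglial, gliosis and dividing cell markers given above were lower in TKO retinae as well. GAS was in the promoter of 5 of 12 interferon-gamma targets with a promoter sequence (41.7%), and the ISRE core was in 7 (58.3%).

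**Figure D5:**
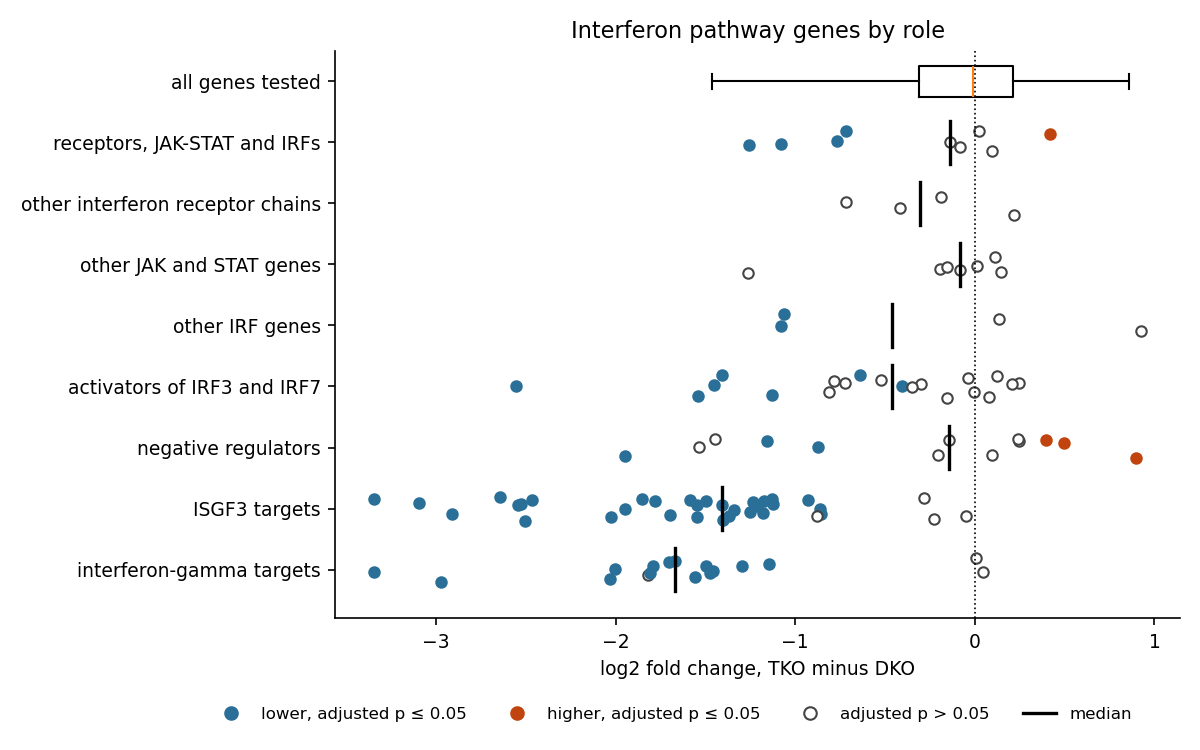
Log2 fold change, TKO minus DKO (horizontal axis), of each tested gene by role, with the median of each list as a black line and the distribution of all 16904 genes at the top (box for the quartiles, whiskers from the 5th to the 95th percentile). The 9 genes have a median of -0.14, against -1.41 for ISGF3 targets and -1.67 for interferon-gamma targets.

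The genes whose levels followed each called gene most closely were sought across the 6 retinae among 14967 genes, as Pearson's r of log2 CPM. The retinae form 2 groups, so r is large for any gene that separates them in the same way, and it is a description only. For Ifnar2 they were Cyr61, Irf8 and Nfkbie (r from 0.997 to 0.998), and for Irf1 they were Msn, Rgma and Snrpn (0.995 to 0.996). Irf7 was followed by Gm4951, Lsm5 and Ifit1 (0.996 to 0.998), and Irf9 by Tor4a, Gbp7 and Rftn2 (0.991 to 0.995). Irf3 was followed by Arfgef2, Tpra1 and Stxbp5 (0.994 to 0.995). Ifit1 and Gbp7, which are on the target lists above, had 69.0 and 149 normalized counts in TKO and 250.2 and 366 in DKO retinae. Nfkbie, Tpra1, Tor4a, Lsm5 and Snrpn did not themselves pass the test (adjusted p from 0.0844 to 0.346 from edgeR).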

How the data were processed

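RNA-seq libraries of 3 TKO and 3 DKO retinae were compared, with groups and replicate numbers taken from the sample titles. The authors deposited raw counts of read pairs per gene, without normalization. The paper's methods name STAR and HTSeq on GRCm38, with up to 3 alignments allowed per read, whereas the submitters' processing notes name TopHat2, featureCounts and DESeq2 with mm10 and GRCm38. Which of these made the table, and the strand setting of the counting, could not be settled, so values of overlapping genes are less certain.

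Genes with a sum under 10 were removed, and 16904 genes were tested with edgeR 4.0.16 in R 4.3.3 (TMM, quasi-likelihood F test, Benjamini-Hochberg adjustment over all of them). Standard errors were taken as |log2 fold change| over the root of the F statistic. DESeq2 1.42.0 was an alternative, as were other scalings, filters, dispersion estimates and thresholds, a replicate block, and each retina left out in turn. The script was tested on simulated data. No 2 libraries of a group were alike within sampling noise (chi-square over its degrees of freedom, 8.61 to 25.3). A count of 0 allows up to 3 counts, which covers counting error only.

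Exon lengths, coordinates and overlaps came from a GENCODE annotation of GRCm38, not the release the paper names, and promoters from RefSeq (GRCm38.p6), which held all 9 genes. The 9 genes, the pathway and marker lists, and the tests were chosen with earlier results of these data known. The lists were hand-written, and Usp18, Ddx58 and Ifih1 are each on 2 of them. Of 36 ISGF3 targets, 35 were in the table. Some genes of the lists are not reported here. Named from each pathway list were all passing genes where 6 or fewer passed, otherwise the 3 with the largest mean count and the 3 with the largest absolute log2 fold change, and every tested gene of lists of 8 or fewer. Genes named for likeness were the 3 with the largest Pearson r to each called gene (log2 CPM, prior count 2). Marker genes, overlapping genes and interferon genes with a count were named after their values were seen, as was Isg15. Marker lists for endothelium, Muller glia, cones, bipolar, amacrine, ganglion and horizontal cells and pigment epithelium were also read.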

Additional observations from a re-analysis of the deposited data

How the results depend on the processing

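The 9 genes gave 4 lower, 1 higher and 2 by the study's criteria. With the replicate block these became 1, 0 and 1, at an adjusted p of at most 0.01 they were 2, 0 and 1, and with total counts only 0 were higher and 5 were lower. With 1 retina left out, 2 to 4 were lower (2 without TKO replicate 2 or DKO replicate 1), 0 to 1 was higher (0 without TKO replicate 1 or 2 or DKO replicate 1 or 2) and 1 to 2 met the study's criteria (1 without TKO replicate 1 or 2 or DKO replicate 1 or 3). ISGF3 targets lower numbered 31, and 13 with the replicate block. In the other alternatives they were 24 to 32, and 24 to 31 with 1 retina left out (24 without TKO replicate 2 or DKO replicate 1). Total counts only moved the median of all genes from -0.01 to -0.17 on the log2 scale, and relative to that median Irf3 was at 0.43, Jak1 at 0.11, Tyk2 at 0.04 and Irf7 at -1.25. The log2 fold change of Jak1 turned to -0.062 with total counts only, and that of Tyk2 to -0.0058 with upper quartile scaling and -0.13 with total counts only. With 1 retina left out Tyk2 ranged from -0.056 to 0.17 and was negative without TKO replicate 1 (-0.04), TKO replicate 3 (-0.056) or DKO replicate 2 (-0.04). Why these values moved was not tested, other than that fewer retinae or degrees of freedom enter a fit with a retina left out or a block.

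The deviations of same-numbered retinae correlated at 0.07, -0.05 and -0.20, which shows no pairing by replicate number. With 3 retinae a group, such values cannot show that a pairing was absent. The replicate block lowered the calls over all genes from 1556 lower and 1243 higher to 82 and 24. With the block Irf7 still passed (adjusted p = 0.0407 from edgeR), and Irf9 (0.0552), Irf1 (0.0566), Ifnar2 (0.0599) and Irf3 (0.0662) did not. Calls over all genes were also fewer without TKO replicate 2 (404 lower and 308 higher), DKO replicate 2 (433 and 214), DKO replicate 1 (499 and 312) or TKO replicate 1 (766 and 541), and with total counts only they were 2610 and 778. With the block, 11 interferon-gamma targets, 1 activator and none of the negative regulators or other IRF genes passed. Irf7 passed in all 14 fits tried, with adjusted p of at most 0.0407, and Hells did too (-3.08 to -2.69, adjusted p of at most 0.0404).

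With 3 retinae a group, the 95% intervals of the uncalled genes still allow changes of up to 0.26 for Jak1, from -0.32 to 0.37 for Tyk2, and down to -0.32 for Stat2 and -0.30 for Ifnar1 on the log2 scale.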
